A study of Mus musculus with 8 samples.

Results

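The glucocorticoid receptor gene Nr3c1 and 9 of its well known induced targets were followed in the renal cortex of aged and young mice. The targets were Fkbp5, Tsc22d3, Sgk1, Zbtb16, Klf9, Cebpd, Cebpb, Pnmt and Errfi1. The 10 genes were taken by symbol from the 22609 gene rows of the count tables, and all 10 had a row. RNA-Seq was performed on whole kidney cortex from 4 aged mice, labelled as 30 months old, and 4 young mice, labelled as 5 months old. All 8 mice were untreated C57BL6 males, and each library came from a different sample of its age group. Levels are given as CPM, the counts scaled to a common library size with the TMM method. A gene was called at an adjusted p below 0.05 over the 13944 genes tested, together with a change above 1.5-fold, by edgeR's quasi-likelihood test.

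The glucocorticoid receptor is a nuclear receptor that waits in the cytoplasm in a complex with the heat shock protein HSP90 and its helper proteins. When cortisol or, in rodents, corticosterone binds, the receptor moves to the nucleus, attaches to glucocorticoid response elements in DNA and raises the transcription of its targets. It also lowers many inflammatory genes, largely by acting on other transcription factors. In the kidney, glucocorticoids act on gluconeogenesis in the proximal tubule and on ion transport along the nephron, and the enzyme HSD11B2 inactivates the hormone in the cells that respond to aldosterone.

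One aged library stood apart from the rest, and most results for the receptor's targets depended on it. Depth was alike, with 14820804 to 19821429 read pairs on genes per library. On the first principal component, which held 48.1% of the variance, aged mouse 1 lay at -71.5, the other aged mice between -16.3 and 2.26 and the young mice between 21.6 and 26.2. The proximal tubule markers were present in every library, as a sample of renal cortex should show, but the summed level of the 12 markers was 12832 CPM in aged mouse 1, 28389 to 41916 CPM in the other aged mice and 44207 to 50386 CPM in the young mice. Kap, an androgen-dependent gene of the proximal tubule, made up most of the gap between the other aged mice and the young. Summed after the data were seen without Kap, the other 11 markers were at 11902 CPM in aged mouse 1, 24369 to 27620 CPM in the other aged mice and 24030 to 28874 CPM in the young mice, so that only aged mouse 1 lay outside the young range. The 7 fat cell markers summed to 528, 146, 38.8 and 83.2 CPM in aged mice 1 to 4, against 25.6 to 66.7 in the young mice. The 12 immune markers in the tables summed to 63.0, 87.0, 67.0 and 145 CPM in aged mice 1 to 4 and to 54.4 to 77.5 CPM in the young mice. In such bulk tissue, fewer cells of a type and less RNA per cell cannot be told apart. Log2 fold changes are therefore given with and without aged mouse 1.

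**Figure D1:**
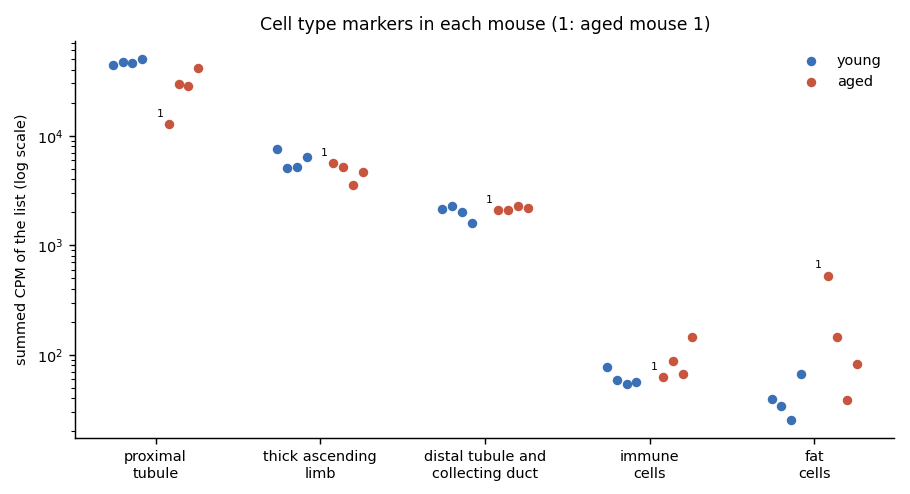
Summed CPM (vertical axis, log scale) of 5 lists of cell type markers, with 1 point per mouse; blue points are young mice, red points aged mice, and the digit 1 marks aged mouse 1. Aged mouse 1 has the lowest proximal tubule sum, 12832 CPM, and the highest fat cell sum, 528 CPM.

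The receptor transcript was not called with age. Nr3c1 (mm9 chromosome 18, 39570199 to 39650955, minus strand) was at 140, 228, 211 and 242 CPM in aged mice 1 to 4 and at 207, 219, 257 and 225 CPM in young mice 1 to 4. Aged mouse 1 was the lowest of the 8 mice, and the other 3 aged mice lay within the range of the young. The means were 205 ± 45.4 CPM in aged and 227 ± 21.4 CPM in young mice (SD, n = 4). The log2 fold change of aged over young was -0.15 (SE 0.16, adjusted p = 0.586), and it was 0.00 (SE 0.09, adjusted p = 0.991) without aged mouse 1.

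Fkbp5 encodes FKBP51, an immunophilin that binds the receptor complex, lowers its affinity for hormone and is itself strongly induced by it. Its level was 391, 73.0, 138 and 130 CPM in aged mice 1 to 4 and 255, 245, 177 and 199 CPM in young mice 1 to 4. Aged mouse 1 was above every young mouse, whereas the other 3 aged mice were below every young mouse. With all mice the means were 183 ± 142 CPM and 219 ± 37.3 CPM (SD, n = 4), and the age difference was not called (log2 fold change -0.26, SE 0.44, adjusted p = 0.734). Without aged mouse 1 Fkbp5 was called lower in the aged mice, with a log2 fold change of -0.95 (SE 0.22, adjusted p = 0.0458). The aged level was then 113 ± 35.2 CPM, or 0.518 times the young mean. Leaving out aged mouse 2 in its place gave 0.0023 (adjusted p = 0.998).

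Tsc22d3 encodes GILZ, a leucine zipper protein that carries part of the anti-inflammatory action of the hormone. It was at 131, 27.8, 72.6 and 76.8 CPM in aged mice 1 to 4 and at 40.0, 49.9, 45.6 and 58.5 CPM in young mice 1 to 4. Aged mice 1, 3 and 4 were above all young mice and aged mouse 2 was below all of them. The log2 fold change was 0.67 (SE 0.37, adjusted p = 0.284), and 0.29 (SE 0.30, adjusted p = 0.581) without aged mouse 1.

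Sgk1 encodes a serine/threonine kinase that raises sodium channel activity in the distal nephron, and both glucocorticoids and aldosterone induce it. Its level was 489, 82.2, 266 and 105 CPM in aged mice 1 to 4 and 75.4, 69.3, 66.6 and 98.5 CPM in young mice 1 to 4. Aged mice 1, 3 and 4 were above every young mouse, and aged mouse 2 lay inside the young range. The aged mean was 3.04 times the young mean (236 ± 188 against 77.4 ± 14.5 CPM, SD, n = 4), and the spread among aged mice was too wide for a call (log2 fold change 1.61, SE 0.51, adjusted p = 0.103). Without aged mouse 1 the log2 fold change was 0.96 (SE 0.36, adjusted p = 0.135). The adjusted p lay between 0.0534 with DESeq2 and 0.225 without young mouse 3.

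The classical response element was looked for in the mm9 sequence in and around all 10 genes. Every match is printed, and only Fkbp5 and Sgk1 had any. Zbtb16, the member called with age, had none. The motif was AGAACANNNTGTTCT, which reads the same on both strands, and it had 639 exact matches in the genome. Only exact matches were searched for in mm9. Elements that differ from it in any fixed letter were missed, so a gene without a match may still hold one. None of the 10 genes had a match within 10 kb of the start of the gene, against 0.315% of 13632 tested genes. Within 10 kb of any annotated transcript start, Fkbp5 had 2 matches and Sgk1 had 1, against 0.638% of the 13632 genes with at least 1. Fkbp5 has 5 annotated transcript starts and Sgk1 has 11, so more sequence was searched for them than for a gene with 1 start. In the runs below the capitals mark the match, and 13 bases on each side are shown from the plus strand.
Fkbp5, chr17:28557253-28557293, intronic: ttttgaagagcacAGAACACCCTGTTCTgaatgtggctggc
Fkbp5, chr17:28579351-28579391, intronic: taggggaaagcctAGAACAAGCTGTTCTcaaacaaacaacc
Sgk1, chr10:21713494-21713534, intronic: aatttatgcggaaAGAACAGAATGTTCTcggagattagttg
The Fkbp5 gene spans positions 28536040 to 28654469 of chromosome 17 on the minus strand, and its matches lay at 8301 and -704 bases from the nearest transcript start. The Sgk1 gene spans positions 21601990 to 21719709 of chromosome 10 on the plus strand, and its match lay at -182 bases from the nearest transcript start. Among the RefSeq promoters of GRCm38.p6, which run from 250 bases before to 50 after each start, 14 belonged to 6 of the 10 genes. The exact motif was in 1 of these 14, a promoter of Sgk1, and in 0.00913% of all 32851 promoters. Its sequence is that of the Sgk1 match printed above, so it is the same site and not a further one. A match describes the sequence only, since binding was not measured.

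Zbtb16 was the one member called with age in all 8 mice. It encodes PLZF, a zinc finger repressor that is induced by glucocorticoids in many tissues. Its level was 148, 21.9, 40.7 and 37.6 CPM in aged mice 1 to 4 and 9.0, 8.25, 5.92 and 7.80 CPM in young mice 1 to 4. Every aged mouse was above every young mouse, and aged mouse 1 was the highest by far. The aged mean was 8.03 times the young mean (62.2 ± 58.1 against 7.74 ± 1.31 CPM, SD, n = 4). The log2 fold change was 3.00 (SE 0.57, adjusted p = 0.0390). By p-value it was number 179 of the 13944 genes. Without aged mouse 1 the log2 fold change was 2.11 (SE 0.22, adjusted p = 0.00573) and the ratio of means 4.31. DESeq2 gave an adjusted p of 8.83e-05. In edgeR the call was lost without aged mouse 3 (adjusted p = 0.0575) and without young mouse 1, 2, 3 or 4 (0.115, 0.0994, 0.105 and 0.125), and the log2 fold change stayed between 2.90 and 3.16 in these 5 fits. The summed fat cell markers were also highest in aged mouse 1, above the young range in aged mice 2 and 4 and within it in aged mouse 3, and their part in the level of Zbtb16 was not tested.

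The other transcription factors among the targets were high in aged mouse 1 and near the young level in the rest. Klf9, a Krüppel-like factor that responds to glucocorticoids and thyroid hormone, was at 614, 231, 219 and 291 CPM in aged mice 1 to 4 and at 253, 258, 292 and 254 CPM in young mice 1 to 4. Aged mice 2 and 3 were below every young mouse and aged mouse 4 was within their range. Its log2 fold change was 0.36 (SE 0.31, adjusted p = 0.476), and it turned to -0.10 (SE 0.11, adjusted p = 0.611) without aged mouse 1.

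Cebpd and Cebpb encode C/EBPδ and C/EBPβ, leucine zipper factors of the acute-phase and gluconeogenic programmes. Cebpd was at 22.2, 6.44, 6.41 and 6.21 CPM in aged mice 1 to 4 and at 7.58, 7.46, 4.49 and 7.74 CPM in young mice 1 to 4. Cebpb was at 112, 22.4, 26.6 and 22.9 CPM in aged mice 1 to 4 and at 23.1, 19.4, 23.4 and 22.8 CPM in young mice 1 to 4. Aged mouse 1 was above all other mice in both genes, at 3.5 and 4.69 times the mean of the other aged mice. The other aged mice lay within the young range, except aged mouse 3, which was above it for Cebpb. The log2 fold changes were 0.60 (SE 0.44, adjusted p = 0.404) for Cebpd and 1.06 (SE 0.51, adjusted p = 0.230) for Cebpb. Without aged mouse 1 they were -0.11 (adjusted p = 0.769) and 0.12 (adjusted p = 0.495).

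Errfi1 encodes MIG6, a feedback inhibitor of the epidermal growth factor receptor. It was at 1183, 375, 409 and 454 CPM in aged mice 1 to 4 and at 449, 686, 464 and 842 CPM in young mice 1 to 4. Aged mouse 1 was again the highest, and aged mice 2 and 3 were below every young mouse. The log2 fold change was -0.01 (SE 0.39, adjusted p = 0.986), and -0.56 (SE 0.22, adjusted p = 0.146) without aged mouse 1.

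Pnmt encodes the enzyme that makes adrenaline from noradrenaline, chiefly in the adrenal medulla. It had 0 counts in all 8 libraries, which allows up to 0.147 to 0.204 CPM per library (3 counts, for counting error only), and it could not be tested. Of the 12 adrenal gland markers, Cyp11b1 and Cyp21a1, which make corticosteroids in the adrenal cortex, also had 0 counts in all 8 libraries. The catecholamine enzymes Th and Dbh had 5 and 10 counts in aged mouse 1 and at most 1 count in any other library. Mc2r had 14, 25, 4 and 10 counts in aged mice 1 to 4 and 3 to 5 counts in the young mice. Only 3 of the 12, Star, Ddc and Slc18a1, passed the filter on low counts, and none of the rest had more than 25 counts in any library. The 12 markers summed to 218, 314, 220 and 273 CPM in aged mice 1 to 4 and to 309 to 486 CPM in the young mice. These sums came almost wholly from the 3 genes that passed the filter, so they do not measure adrenal tissue.

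**Figure D2:**
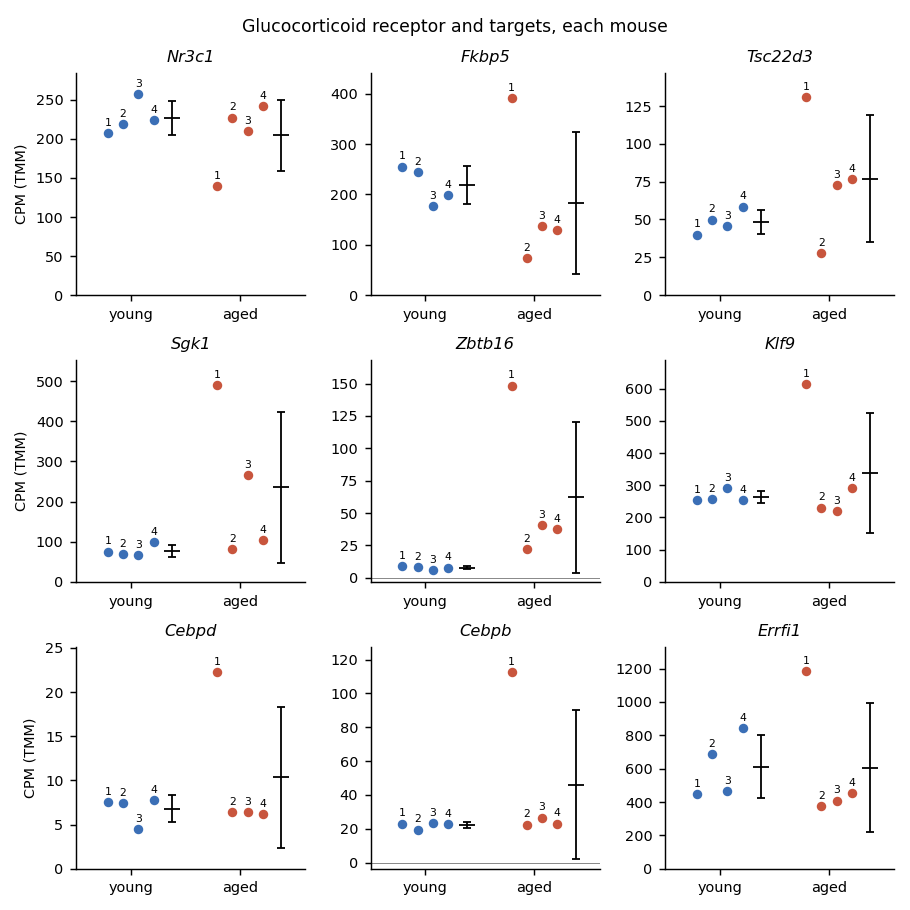
CPM of the receptor gene and the 8 targets that were tested, with 1 numbered point per mouse (blue young, red aged) and the group mean with its SD (n = 4) as a black bar. Aged mouse 1 is the highest point in each target and the lowest in Nr3c1, and only for Zbtb16 do the groups not overlap.

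Taken as a list, 9 of the 10 genes passed the filter on low counts. Of these 9, 1 was called higher in the aged mice and 0 were called lower, where 1.17% and 0.889% of all tested genes were called in these directions (2.06% in all). All aged mice were on one side of all young mice in 1 of the 9, against 18.9% of all genes. Without aged mouse 1, 1 member was called higher (Zbtb16) and 1 lower (Fkbp5), against 3.17% of 14016 genes called in either direction. The median log2 fold change of the 9 was 0.60, beside 0.03 over all genes tested, and without aged mouse 1 both were near 0 (0.00 and 0.02). At an unadjusted p below 0.05, 2 of the 9 members passed, Sgk1 and Zbtb16, beside 3557 of all 13944 genes tested.

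**Figure D3:**
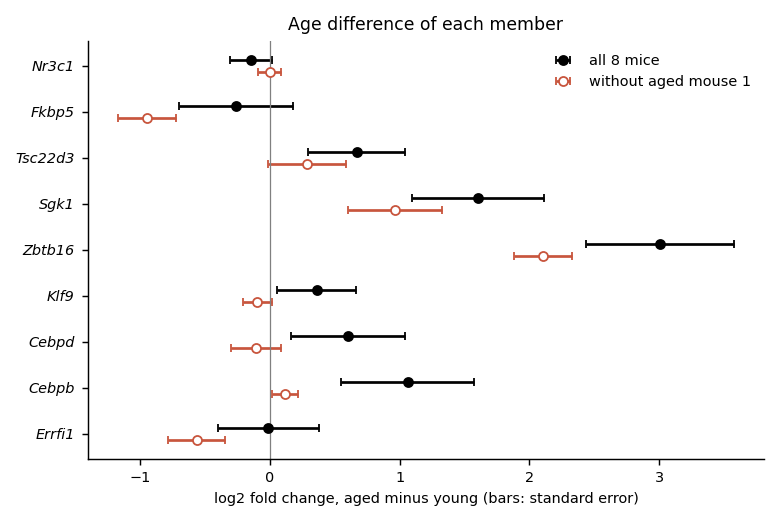
Log2 fold change of aged over young mice (horizontal axis, bars show the SE) for the 9 members tested, with all 8 mice (black) and without aged mouse 1 (open red). Leaving out this mouse moves Fkbp5 from -0.26 to -0.95 and Zbtb16 from 3.00 to 2.11, and leaves Nr3c1, Klf9, Cebpd and Cebpb between -0.11 and 0.12.

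The likeness among the targets rested mainly on this 1 mouse. Aged mouse 1 was the highest of the 8 mice in 8 of the 8 targets tested, which was the case in 28.4% of all genes. The median log2 difference of the 8 targets from the young mean was 1.58 in aged mouse 1 and -0.12, 0.11 and 0.10 in aged mice 2, 3 and 4. Over the 28 pairs of targets the median Pearson r of log2 CPM across the 8 mice was 0.70 and all 28 were positive. Without aged mouse 1 the median was 0.14 and 17 of 28 were positive. These correlations are descriptive, as the points share their libraries and age groups. The SD of log2 CPM was larger in the aged than in the young mice in 9 of 9 members and in 83.4% of all genes.

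Levels between genes were compared per length, as CPM per kb of exon in mm9, in the young mice. The length was that of all GENCODE exons of a gene joined, while counts were made on RefSeq genes, so the order is approximate. Errfi1 was the most abundant member at 170 ± 52.7 CPM per kb (SD, n = 4), followed by Klf9 at 80.9 ± 5.71, Fkbp5 at 34.7 ± 5.91 and Nr3c1 at 30.6 ± 2.89. Sgk1 (15.8 ± 2.95), Cebpb (14.7 ± 1.23) and Tsc22d3 (11.2 ± 1.8) came next, before Cebpd (5.78 ± 1.32) and Zbtb16 (1.52 ± 0.257). The ranges of Fkbp5 and Nr3c1 overlapped, as did those of Sgk1 and Cebpb and those of Cebpb and Tsc22d3, so these neighbours were not set apart by the spread of the young mice. Zbtb16 was thus a low transcript in young cortex, with 20.2% of genes below it, and Nr3c1 a common one, with 86.3% below.

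Of 34 further genes known to be induced by glucocorticoids, 33 were tested and none was called with age by edgeR. Its unadjusted p was below 0.05 for 7 of the 33, beside 3557 of all 13944 genes tested. DESeq2 called 5 of the 33 and limma-voom 2, beside 873 and 483 of all 13944 genes. In edgeR 2 were called without aged mouse 1 (Cdkn1a and Pck1), beside 444 of 14016 genes. Without aged mouse 4 edgeR called 2, beside 733 of 14066 genes. Without young mouse 3 it called 1, beside 14 of 14144 genes. Aged mouse 1 was the highest of the 8 mice in 27 of the 33 (81.8%). The median log2 fold change was 0.50, and -0.05 without aged mouse 1. The median log2 difference from the young mean was 1.37 in aged mouse 1, and between -0.10 and 0.02 in the other aged mice.

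Cdkn1a, the cyclin-dependent kinase inhibitor p21, had the largest difference among the 4 further targets named by rule. It was at 114, 15.3, 24.7 and 8.99 CPM in aged mice 1 to 4 and at 5.18, 3.91, 4.96 and 6.38 CPM in young mice 1 to 4, so that every aged mouse was above every young mouse. Its log2 fold change was 3.00 (SE 0.76, adjusted p = 0.0658), and it was called without aged mouse 1 (1.68, SE 0.32, adjusted p = 0.0274). Bcl6, a transcriptional repressor, was at 22.9 to 50.2 CPM in the aged mice and at 201, 131, 24.8 and 138 CPM in young mice 1 to 4 (log2 fold change -1.99, SE 0.54, adjusted p = 0.0742, and -1.87, adjusted p = 0.0932 without aged mouse 1). Young mouse 3 was within the range of the aged mice, and Bcl6 was called lower without it (-2.33, adjusted p = 0.0408). Klf15, a factor of amino acid breakdown, differed by 0.29 (SE 0.09, adjusted p = 0.0939) and G6pc, the last enzyme of glucose production, by 0.65 (SE 0.20, adjusted p = 0.0942) on the log2 scale. The differences without aged mouse 1 were 0.26 (adjusted p = 0.101) and 0.70 (adjusted p = 0.0768).

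Pck1 and Pdk4 were chosen after their values were seen. Pck1, the enzyme that commits the proximal tubule to gluconeogenesis, was at 4706 CPM in aged mouse 1, at 1023 to 1144 CPM in the other aged mice and at 1631 to 2484 CPM in the young mice. It was called lower without aged mouse 1 (log2 fold change -0.85, SE 0.14, adjusted p = 0.0204) and had a log2 fold change of 0.02 with it. Pck1 and Fkbp5 had the same arrangement, with aged mouse 1 above and the other 3 aged mice below every young mouse. Among the other induced targets Mertk, Lpin1 and Pim3 had it too. Aged mice 2 to 4 were all below every young mouse in 5 of the 33 other induced targets and in 1741 of all 13944 genes. How many of all genes also had aged mouse 1 above every young mouse was not counted. The shared arrangement is therefore not shown to be particular to the targets. Pdk4, a kinase that shuts off pyruvate oxidation in fasting, was at 892 CPM in aged mouse 1, at 24.9 to 60.8 CPM in the other aged mice and at 14.1 to 29.5 CPM in the young mice. Its log2 fold change was 3.60 (SE 1.13, adjusted p = 0.0998), and 1.04 (SE 0.32, adjusted p = 0.0856) without aged mouse 1.

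**Figure D4:**
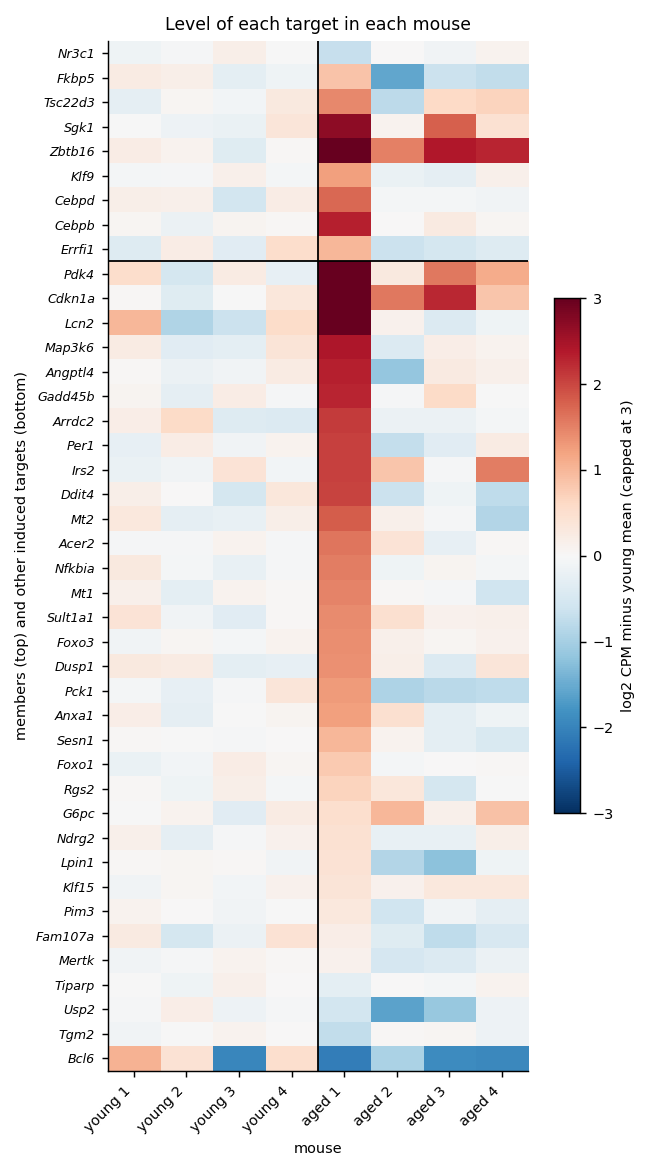
Log2 CPM minus the mean of the young mice (colour, capped at 3 in either direction) for the 9 members tested (above the line) and 33 other induced targets (below the line, ordered by aged mouse 1), with 1 column per mouse. The column of aged mouse 1 is red for most targets, with a median of 1.37 over the 33, and the columns of the other aged mice are mixed.

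Genes that the receptor represses gave no call. Of 12 inflammatory genes, 8 were tested, of which 3 had an unadjusted p below 0.05 in edgeR, beside 3557 of all 13944 genes. None of the 8 was called by edgeR. DESeq2 called 2 and limma-voom 0, beside 873 and 483 of all 13944 genes. Without aged mouse 4 edgeR called 1, Vcam1, beside 733 of 14066 genes. The median log2 difference of the 8 from the young mean was -0.29 in aged mouse 1 and 0.26, 0.45 and 0.55 in aged mice 2, 3 and 4. It was 0.26, -0.15, -0.13 and 0.05 in young mice 1 to 4, so aged mouse 2 was level with young mouse 1. Vcam1, an adhesion molecule for leukocytes, was at 17.7 to 22.1 CPM in the aged and 10.9 to 15.5 CPM in the young mice, without overlap (log2 fold change 0.59, SE 0.13, adjusted p = 0.0525, and adjusted p = 0.0481 without aged mouse 4). Ccl5, a chemokine of T cells, differed by 1.63 (SE 0.46, adjusted p = 0.0811), Nos2, the inducible nitric oxide synthase, by -1.09 (SE 0.40, adjusted p = 0.137) and Mmp9, a matrix protease, by 0.36 (SE 0.25, adjusted p = 0.380) on the log2 scale. The values without aged mouse 1 for Vcam1, Ccl5, Nos2 and Mmp9 were 0.53, 1.72, -1.01 and 0.49, with adjusted p between 0.0532 and 0.223. Ccl5, Nos2 and Mmp9 were all below 4 CPM in every library. Il1b and Ccl2, also among the 8, were below 4 CPM too, and Cxcl10 was at most 4.52 CPM.

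The chaperones that hold the receptor ready to bind hormone were lower in the aged mice in part. Of 15 tested, 2 were called lower and 0 higher, where 0.889% and 1.17% of all genes were. In 6 of the 15 every aged mouse was below every young mouse, as in 10% of all genes. Hsp90aa1, the inducible HSP90, was at 112, 187, 230 and 147 CPM in aged mice 1 to 4 and at 366, 319, 360 and 417 CPM in young mice 1 to 4. Its log2 fold change was -1.11 (SE 0.20, adjusted p = 0.0361), and -0.96 (SE 0.15, adjusted p = 0.0185) without aged mouse 1.

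Hsp90ab1, the constitutive HSP90, was at 728, 1062, 1168 and 974 CPM in aged mice 1 to 4 and at 1554, 1560, 1498 and 1808 CPM in young mice 1 to 4. Its log2 fold change was -0.71 (SE 0.15, adjusted p = 0.0483), and -0.59 (SE 0.10, adjusted p = 0.0231) without aged mouse 1. For both HSP90 genes every aged mouse was below every young mouse, and aged mouse 1 was the lowest. Stip1, which bridges HSP70 and HSP90, had a log2 fold change of -0.68 (SE 0.20, adjusted p = 0.0876) and Ptges3, the p23 cochaperone, -0.36 (SE 0.11, adjusted p = 0.0921). These were -0.53 (adjusted p = 0.0787) and -0.28 (adjusted p = 0.0804) without aged mouse 1, and Stip1 was called without aged mouse 3 (-0.91, adjusted p = 0.037). The median log2 fold change of the 15 was -0.20, beside 0.03 over all genes. No chaperone was called without aged mouse 2 or without any 1 of the young mice, Hsp90ab1 was also lost without aged mouse 3, and the adjusted p reached 0.123 for Hsp90aa1 and 0.145 for Hsp90ab1. HSP90 genes have near-identical processed copies in the genome, and pairs that fit several places were not assigned to a gene, so their absolute levels are uncertain.

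The cofactors that the receptor recruits at its targets gave no call either. Of 16 coactivators, corepressors and chromatin remodellers tested, 4 had an unadjusted p below 0.05 in edgeR, beside 3557 of all 13944 genes. None of the 16 was called by edgeR, DESeq2 or limma-voom. Without aged mouse 4 edgeR called 1, the mediator subunit Med14, beside 733 of 14066 genes. The median log2 fold change of the 16 was -0.08. Those named were the acetyltransferases Crebbp (log2 fold change 0.34, SE 0.11, adjusted p = 0.106) and Ep300 (0.26, SE 0.12, adjusted p = 0.191) and the remodeller ATPase Smarca4 (-0.22, SE 0.08, adjusted p = 0.133). With aged mice 2 to 4 only, the log2 fold changes were 0.31, 0.28 and -0.18 (adjusted p = 0.123, 0.178 and 0.146).

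Among genes that set how much steroid reaches the receptor, both P-glycoprotein genes rose with age. Of 11 genes tested, 2 were called higher and 0 lower, where 1.17% and 0.889% of all genes were, and the median log2 fold change was -0.01. Abcb1a, which encodes an efflux pump that can carry glucocorticoids out of cells, was at 22.4, 23.6, 21.1 and 19.5 CPM in aged mice 1 to 4 and at 7.64, 9.15, 11.6 and 8.74 CPM in young mice 1 to 4. The aged mean was 2.33 times the young mean (log2 fold change 1.22, SE 0.14, adjusted p = 0.0120), and aged mouse 1 did not stand out. Abcb1b, its paralog, was at 66.9, 35.9, 34.5 and 20.4 CPM in aged mice 1 to 4 and at 10.4 to 11.9 CPM in the young mice (log2 fold change 1.82, SE 0.31, adjusted p = 0.0311).

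Neither P-glycoprotein gene overlapped between the age groups, and both were called without aged mouse 1 (log2 fold changes 1.20 and 1.44, adjusted p = 0.00905 and 0.0113). Without young mouse 1 and without young mouse 4 neither was called, and without aged mouse 2 or 3 or young mouse 2 or 3 only 1 was. The highest adjusted p was 0.0594 for Abcb1a and 0.105 for Abcb1b. As the sequences of the pair are alike, some of their read pairs may not have been assigned.

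The enzymes and the sister receptor named here were not called with all 8 mice. Hsd11b1, which regenerates active hormone, was at 54.7 to 78.6 CPM in the aged and 58.7 to 104 CPM in the young mice (log2 fold change -0.44, SE 0.20, adjusted p = 0.209). Srd5a2, a steroid 5-alpha-reductase, had a log2 fold change of -1.05 (SE 0.44, adjusted p = 0.177), and it was called lower without aged mouse 4 (-1.57, adjusted p = 0.0403). Hsd11b2, which inactivates the hormone, and Nr3c2, the mineralocorticoid receptor, had log2 fold changes of -0.31 (SE 0.20, adjusted p = 0.357) and 0.12 (SE 0.09, adjusted p = 0.454), and are given because they are the best known partners of Nr3c1 in the kidney. With aged mice 2 to 4 only, the log2 fold changes of Hsd11b1, Srd5a2, Hsd11b2 and Nr3c2 were -0.53, -0.81, -0.12 and 0.10, with adjusted p between 0.156 and 0.550.

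**Figure D5:**
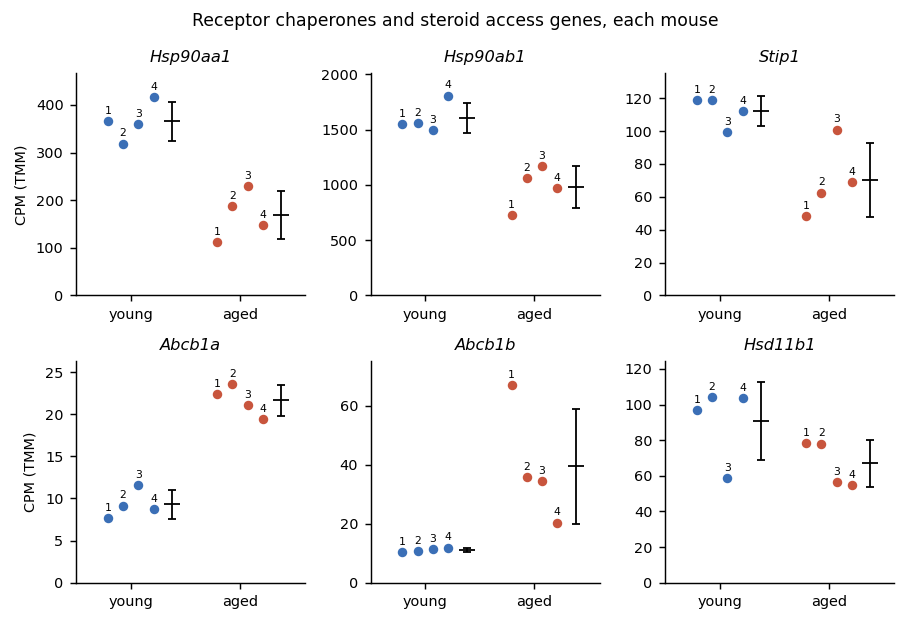
CPM of 3 receptor chaperones (top) and 3 steroid access genes (bottom), with 1 numbered point per mouse (blue young, red aged) and the group mean with its SD (n = 4) as a black bar. Hsp90aa1 and Hsp90ab1 are lower and Abcb1a and Abcb1b higher in every aged mouse than in every young mouse, while Stip1 and Hsd11b1 overlap between the groups.

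Glucocorticoid levels follow the day, and several of the targets above are rhythmic, so the clock genes are given beside them. Of 16 clock genes tested, Arntl, Npas2 and Nfil3 were called higher and Dbp and Nr1d2 lower in the aged mice, where 2.06% of all genes were called in either direction. Arntl, which encodes the clock activator BMAL1, had a log2 fold change of 2.73 (SE 0.19, adjusted p = 0.00143), and Dbp, an output of the clock, of -2.63 (SE 0.33, adjusted p = 0.0141). The same 5 genes were called without aged mouse 1, when these values were 2.68 (adjusted p = 0.0027) and -2.82 (adjusted p = 0.00905). Arntl kept its call with every mouse left out in turn, and Dbp lost it without young mouse 1, 3 or 4 (highest adjusted p = 0.0633). Per1, a clock gene and a direct target of the receptor, was at 168 CPM in aged mouse 1, at 24.6 to 48.1 CPM in the other aged mice and at 34.1 to 47.5 CPM in the young mice (log2 fold change 0.74, SE 0.54, adjusted p = 0.405, and -0.22, adjusted p = 0.536 without aged mouse 1). The hour of tissue collection is not given in the sources used here, and the part of the clock genes in the levels of the receptor's targets was not tested.

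The genes whose log2 CPM across the 8 mice was most like that of Fkbp5 were Nbeal2, Pim3, Penk, Slc20a1 and Abcf2, with Pearson r between 0.97 and 0.98, and between 0.95 and 0.98 without aged mouse 1. Pim3 is itself on the list of other induced targets. The members nearest to Fkbp5 were Errfi1 (r = 0.77, and 0.60 without aged mouse 1), Klf9 and Cebpd (both 0.66, and 0.31 and 0.30). The genes most like Nr3c1 were Mfsd1, Palm, Myo7a, Enpp6 and Siae, with r between 0.98 and 0.99, and 0.90 to 0.91 without aged mouse 1. All 8 targets tested had a negative r with Nr3c1, from -0.97 for Cebpd to -0.64 for Fkbp5. Aged mouse 1 was the lowest mouse for Nr3c1 and the highest for all 8 targets. Without aged mouse 1 the r of Cebpd was -0.80 and that of Klf9 0.75, and the other targets lay between -0.38 (Sgk1) and 0.03 (Tsc22d3). The values describe these 8 mice, which share 2 age groups and 1 library that stood apart.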

How the data were processed

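Renal cortex RNA of 4 aged and 4 young mice was analysed, 1 library per sample, grouped by the sample labels. The authors depleted ribosomal RNA, sequenced stranded paired ends, aligned them to mm9 with TopHat2 and deposited raw counts of read pairs per RefSeq gene from HTSeq-count (CASAVA 1.8.2 per the submitters' processing notes; other versions are not given in the sources used here). Each table ends in 5 rows of special counters, which were not used as genes; pairs on no gene made 20.0% to 29.9% of the sum of all rows. A joint table with 8 columns not named in the labels was not used.

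Counts were tested in R 4.3.3 with edgeR 4.0.16 (quasi-likelihood, TMM, filterByExpr with a minimum count of 10), all 8 libraries and no covariate, with Benjamini-Hochberg adjustment over 13944 genes. Log2 CPM used a prior count of 2. The script was tested on simulated data. DESeq2 1.42.0, limma-voom 3.58.1, other scalings and filters, robust fitting, a replicate block, each mouse left out and the adjusted p alone were the alternatives. Exon lengths and positions came from GENCODE for mm9 and promoters from RefSeq for GRCm38.p6. P-values measure the spread between these samples.

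The members and all gene lists were chosen with earlier results of these data known. The text names every member, the 4 genes with the smallest p in each list (1 of them is not reported here) and, said to be so, a few others, among them clock genes, Hsd11b2 and Nr3c2. The matching of replicate numbers across ages was checked with a mixed result, given at the end, and the samples were not taken as pairs.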

Additional observations from a re-analysis of the deposited data

Results flagged for a closer look

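Single mice stood apart within their group of 4 in 13 of 58 groups examined (29 named genes at 2 ages). There the gap to the nearest mouse, as a share of the group's range, exceeded Dixon's 95% critical value. About 2.9 groups would be expected by chance if the groups were independent and their values normally distributed. The groups share the same 8 libraries and the gaps were taken on CPM without logs, so the 2 counts cannot measure an excess over chance. Aged mouse 1 accounted for 5 of the 13. It was the highest aged mouse in Zbtb16 (gap 0.851 of the range), Cebpd (0.986), Cebpb (0.954), Errfi1 (0.903) and Cdkn1a (0.850). Other aged mice stood apart in Bcl6 (aged mouse 2, 0.875), Ccl5 (aged mouse 4, 0.862) and Nos2 (aged mouse 2, 0.840), each as the highest. Among the young mice, mouse 3 was the highest in Klf9 (0.871) and the lowest in Cebpd (0.914) and Hsd11b1 (0.837), mouse 2 was the lowest in Cebpb (0.851) and mouse 4 was the highest in Ptges3 (0.859).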

How the results depend on the processing

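Zbtb16 was called in 12 of 17 other fits, and the count of members called was 1 in each fit that used all 8 mice. With each mouse left out in turn, the calls ranged from 0 to 2 for the members, 0 to 2 for the other induced targets, 0 to 1 for the repressed genes, 0 to 2 for the chaperones, 0 to 1 for the cofactors and 0 to 3 for the steroid access genes (3 without aged mouse 4, when Srd5a2 was called lower). Over all genes the count then ranged from 8 (without young mouse 1) to 733 (without aged mouse 4), beside 287. DESeq2 called 873 genes, library size only 488 and limma-voom 483. Of the other induced targets, library size only called 2, DESeq2 5 and limma-voom 2, in place of 0. Of the repressed genes, upper-quartile scaling called 1, library size only 1 and DESeq2 2, in place of 0. Of the chaperones, DESeq2 called 4, and upper-quartile scaling, library size only and both other filters on low counts 1 each, in place of 2.

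With the replicate number as a block, 130 genes were called in all, 0 chaperones and 1 steroid access gene, while Zbtb16 kept its call. Mice with the same number had correlated deviations of 0.21, 0.04, 0.20 and -0.03, and 3 of 4 correlated best with their own number. The numbers were not taken as pairs, because the labels tie them to nothing shared and 2 of the 4 correlations were below 0.1. The log2 fold change of Klf9 was -0.034 with limma-voom, and that of Errfi1 was 0.032 with upper-quartile scaling and 0.11 with library size only, which moved the median of all genes from 0.03 to 0.14. With each mouse left out, Fkbp5 ranged from -0.95 to 0.0023, Klf9 from -0.096 to 0.52, Cebpd from -0.11 to 0.78 and Errfi1 from -0.56 to 0.18. The cause of these changes was not tested.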
